A study of Mus musculus with 6 samples.

Results

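Smooth muscle contractile genes were examined in dendritic cell cultures grown from mouse bone marrow, with and without the growth factor midkine. The genes were taken by symbol from the authors' table of normalised read counts: Acta2, Tagln, Cnn1, Cnn2, Tpm1, Tpm2, Tpm4, Myl9, Cald1 and Vcl. All 10 have a row among the 14912 genes of the table, and all 10 passed the minimum mean value of 10 that left 11844 genes for testing. They were selected on their measured values in this same comparison, so the differences between the groups, and their calls, are given as a description and not as a test. Sequencing of transcript 3' ends was run on 6 libraries of wild-type C57BL/6J marrow. In the midkine group, 3 cultures received recombinant human MIDKINE at 10 ng/ml during the last 2 days. In the control group, 3 cultures received none. Every culture in both groups was grown with the dendritic cell growth factor FLT3LG at 50 ng/ml, renewed on day 7. The labels name no sorting step before RNA extraction, give no age of the mice, and do not say whether replicates were separate mice, so p-values describe only the scatter among these samples, part of which may be technical.

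Contractile cells pull on their surroundings by sliding actin filaments along myosin. In smooth muscle, and in fibroblasts that have taken on contractile features, the actin is the alpha smooth muscle form and the filament is dressed with tropomyosin, caldesmon, calponin and transgelin, which steady it and hold back myosin until calcium signals arrive. Vinculin links the ends of the filaments to adhesion sites. Many of these genes are controlled by the transcription factor SRF together with cofactors of the myocardin family, which bind a DNA element called the CArG box. Several members of the same families (calponin 2, tropomyosin 4 and vinculin among them) are also made by leukocytes.

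Midkine libraries held 5685055 to 6453768 reads, and control libraries held 5089338 to 5532055. Mitochondrial ribosomal RNA took 18.1% to 20.9% of the reads in midkine libraries and 9.33% to 9.86% in control libraries. Dendritic cell markers were present in both groups, with Flt3, the receptor for the culture cytokine, at 586 ± 12.8 normalised read counts in midkine and 634 ± 34.9 in control cultures (SD, n = 3 each). Type I collagen was present in both groups too: Col1a1 stood at 11177 ± 1633 in midkine and 3485 ± 435 in control cultures. Which cells of the cultures held each RNA was not measured. The smooth muscle myosin heavy chain Myh11 and the smooth muscle coactivator Myocd have no row among the 14912 genes, so they could not be analysed. In bulk libraries, more cells of a type and more RNA per cell cannot be told apart. Normalised read counts are read counts divided by the authors' size factor of each library; they are not set per transcript length, so levels are compared between libraries and not between genes.

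The genes lie on 8 chromosomes, with Tagln, Cnn1 and Tpm1 on chromosome 9. Promoter sequences of GRCm38.p6 from RefSeq, 250 bases before to 50 bases after the start of transcription, matched 9 of the 10 genes and gave 10 promoters, Cald1 having a pair; Tagln had none. The CArG box was searched by its letters (a run of A or T between a pair of C and a pair of G), which read the same way on both strands. An exact match was found in 3 of the 10 promoters, against 1.63% of all 32851 promoters and 1.39% of the 11304 promoters of tested genes. Near matches, with 1 mismatch, were found in 4 of the 10 promoters: 2 each in Acta2 and Tpm1 and 1 each in Myl9 and the upstream Cald1 promoter. At least 1 near match was held by 19.9% of all promoters and 15.6% of those of tested genes, and at least 2 by 3.38% and 2.19%. Shown are the promoters with an exact match (Myl9, Cnn2 and Vcl, that match in capitals) and those with 2 near matches (Acta2 and Tpm1, both in capitals). The near matches of Myl9 (CCTTGTAAGG, in lower case below) and Cald1 (GCTTTTTAGG) begin at -99 and -203, counted from the start of transcription. No other motif was searched. The median GC content of the 10 promoters was 66.5%, against 61.0% for those of tested genes.
Acta2: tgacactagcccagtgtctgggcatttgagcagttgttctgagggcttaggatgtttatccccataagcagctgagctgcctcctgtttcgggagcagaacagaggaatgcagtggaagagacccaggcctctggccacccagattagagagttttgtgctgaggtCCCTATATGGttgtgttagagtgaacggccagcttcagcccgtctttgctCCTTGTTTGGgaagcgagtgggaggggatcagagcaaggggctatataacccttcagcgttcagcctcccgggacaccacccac
Tpm1: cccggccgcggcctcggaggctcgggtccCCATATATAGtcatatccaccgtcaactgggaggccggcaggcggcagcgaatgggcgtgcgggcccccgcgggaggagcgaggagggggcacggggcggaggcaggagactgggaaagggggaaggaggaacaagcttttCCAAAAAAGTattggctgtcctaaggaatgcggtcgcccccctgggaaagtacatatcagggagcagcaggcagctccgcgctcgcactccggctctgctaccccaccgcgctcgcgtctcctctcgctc
Myl9: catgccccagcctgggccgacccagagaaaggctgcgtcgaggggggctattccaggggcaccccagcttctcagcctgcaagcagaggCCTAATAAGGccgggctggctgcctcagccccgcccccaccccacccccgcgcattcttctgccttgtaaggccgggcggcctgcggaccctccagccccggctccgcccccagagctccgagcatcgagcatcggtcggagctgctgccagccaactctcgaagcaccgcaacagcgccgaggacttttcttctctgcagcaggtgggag
Cnn2: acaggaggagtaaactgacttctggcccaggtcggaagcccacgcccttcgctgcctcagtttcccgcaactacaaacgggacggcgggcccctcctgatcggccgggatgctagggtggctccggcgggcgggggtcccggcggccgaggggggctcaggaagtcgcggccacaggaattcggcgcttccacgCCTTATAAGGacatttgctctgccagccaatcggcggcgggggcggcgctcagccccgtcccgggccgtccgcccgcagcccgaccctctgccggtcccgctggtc
Vcl: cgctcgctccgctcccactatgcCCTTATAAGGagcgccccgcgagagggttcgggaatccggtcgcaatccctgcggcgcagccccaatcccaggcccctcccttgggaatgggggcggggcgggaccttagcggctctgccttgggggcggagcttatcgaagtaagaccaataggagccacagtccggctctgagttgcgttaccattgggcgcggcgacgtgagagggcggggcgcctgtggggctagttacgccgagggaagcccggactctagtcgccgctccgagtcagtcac
Acta2 is at chr19:34255324-34255623 and Tpm1 at chr9:67049164-67049463, both on the minus strand, with Myl9 at chr2:156775214-156775513, Cnn2 at chr10:79988350-79988649 and Vcl at chr14:20929148-20929447, the last 3 on the plus strand. On the same count the capitals begin at -161 in Myl9, at -56 in Cnn2 and at -227 in Vcl. In Acta2 they begin at -84 and -34, the first reading CCCTATATGG and the second CCTTGTTTGG. In Tpm1 they begin at -221 and -80 and read CCATATATAG and CCAAAAAAGT. Cnn2 and Vcl share the same match, CCTTATAAGG. Binding of SRF was not measured, and nothing about it is drawn from a match or its lack.

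The actin of smooth muscle and its binding protein transgelin both had values more than 3 times higher with midkine. Acta2, the alpha smooth muscle actin gene (chr19:34241090-34255590 in GRCm38), had 10115, 11087 and 11117 normalised read counts in midkine libraries, against 2276, 2553 and 2694 in control libraries. The lowest midkine library stood 3.75 times above the highest control library. The log2 fold change was 2.10 (SE 0.08, limma on log2(value + 1)). Tagln (chr9:45929619-45936058), which encodes the actin-bundling protein transgelin, had 5467, 4537 and 4974 in midkine libraries and 858, 1189.5 and 1059.9 in control libraries (log2 fold change 2.28, SE 0.10). The groups did not overlap for either gene, and the spread within a group was wider for Tagln in control cultures (coefficient of variation 16.2%) than for Acta2 (8.47%). Exons of Tagln overlap those of Pcsk7 and Gm48529 on the other strand, and since no strand setting is stated such reads cannot be told apart. Pcsk7 was at 72.7 ± 6.37 in midkine and 84.5 ± 8.18 in control cultures (SD, n = 3 each) and was not called.

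**Figure D1:**
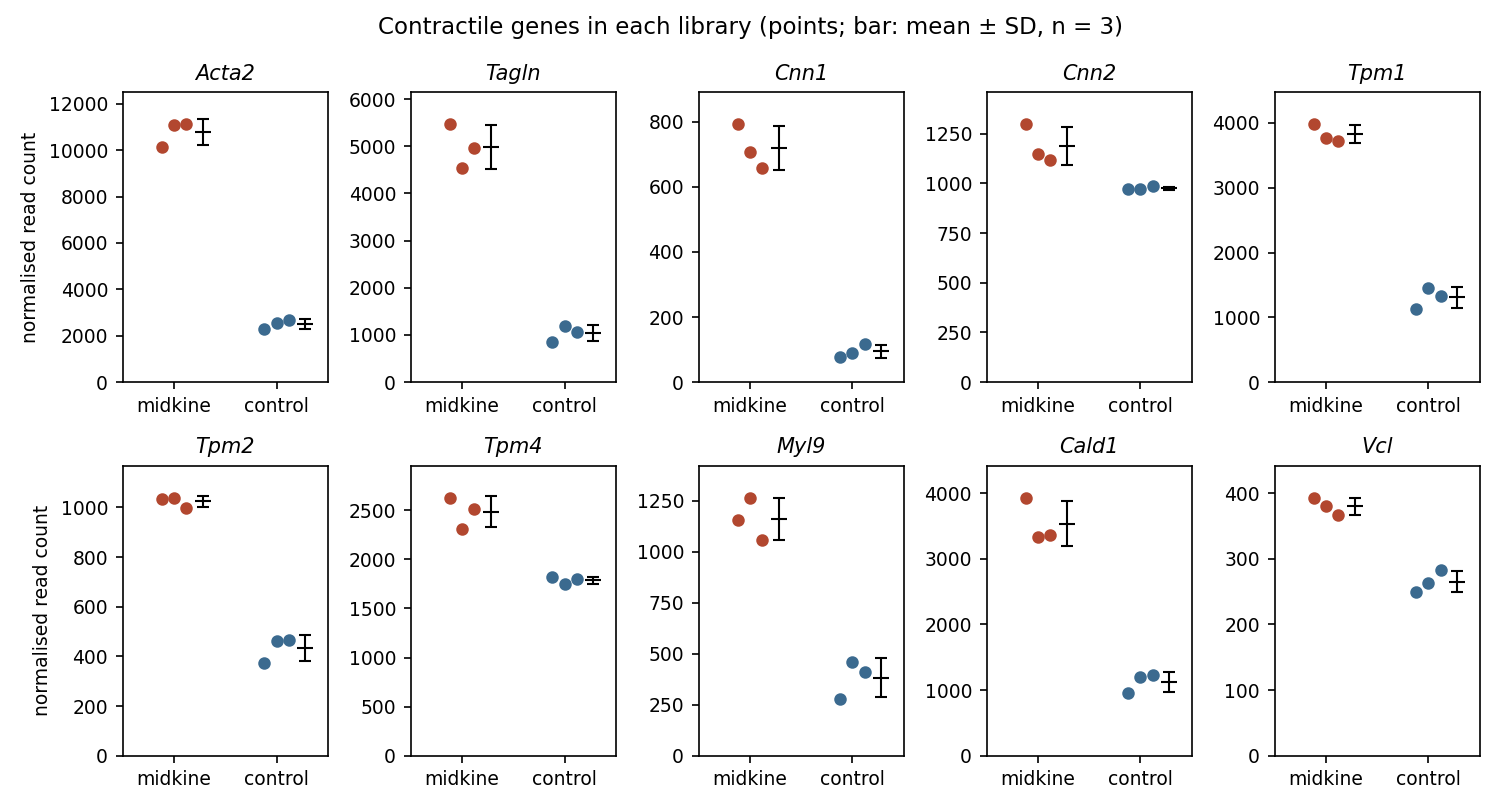
Normalised read counts of the 10 contractile genes (vertical axis, from 0, own scale per gene) in 3 midkine and 3 control libraries. Points are libraries and the bar beside them is the mean with its SD; in every panel the midkine points lie above the control points, by the widest margin for Cnn1 and the narrowest for Cnn2.

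The pair of calponin genes lay at the ends of the range. Cnn1 (chr9:22099216-22109630), basic calponin, an inhibitor of actomyosin that marks differentiated smooth muscle, had 792, 706 and 658 normalised read counts in midkine libraries, against 78.4, 89.6 and 117 in control libraries. Its log2 fold change of 2.92 (SE 0.12) was the highest of the 10 and the 15th highest of the 11844 genes tested. Cnn2 (chr10:79988584-79996062), the calponin of many non-muscle cells including leukocytes, had 1298, 1146 and 1119.9 in midkine libraries, against 972, 972 and 985 in control libraries. That is a log2 fold change of 0.28 (SE 0.08), the lowest of the 10, although the groups did not overlap. The control values of Cnn2 were close together, with a coefficient of variation of 0.761%, against 20.8% for Cnn1.

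Among tropomyosins, the coiled coils that lie along the actin filament, Tpm1 and Tpm2 differed by more than Tpm4. Tpm1 (chr9:67022590-67049406), which gives rise to muscle and non-muscle forms, had 3979.9, 3768 and 3726 normalised read counts in midkine libraries and 1135, 1455 and 1333 in control libraries (log2 fold change 1.55, SE 0.08). Tpm2 (chr4:43514711-43523765), beta tropomyosin of muscle and fibroblasts, had 1033, 1039 and 999.8 with midkine and 372, 464 and 465 in control cultures (1.25, SE 0.09). For both genes every midkine library had more than 2 times the value of every control library. Tpm4 (chr8:72134975-72153142), a non-muscle tropomyosin also found in platelets, had 2628, 2313 and 2517 in midkine libraries, against 1815, 1746 and 1796 in control libraries (0.48, SE 0.07). Reads were counted per gene, so muscle and non-muscle transcripts of Tpm1 were not told apart.

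Myosin and its brake were represented by Myl9 and Cald1. Myl9 (chr2:156775420-156781658), the regulatory light chain whose phosphorylation starts contraction, had 1155, 1266 and 1060.3 normalised read counts in midkine libraries, against 278, 461 and 409.6 in control libraries. Its log2 fold change was 1.63 (SE 0.12), and its control libraries were the most spread of the 10 genes, with a coefficient of variation of 24.7%. Cald1 (chr6:34598500-34775473), caldesmon, which blocks the myosin binding sites on actin, had 3931, 3328 and 3357 in midkine and 955, 1204 and 1229.8 in control libraries (1.65, SE 0.09). Vcl (chr14:20929398-21033676), vinculin, had 393, 380.3 and 366 in midkine and 250.3, 263 and 282 in control libraries (0.52, SE 0.10). Its groups did not overlap, and the closest pair of libraries differed 1.30-fold. Exons of Vcl overlap those of Ap3m1 on the other strand, which was at 112 ± 17.7 in midkine and 118 ± 16.1 in control cultures (SD, n = 3 each) and was not called.

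All 10 genes were called higher by limma (Benjamini-Hochberg adjusted p under 0.05 over all genes), where 20.9% of the tested genes were called higher, 21.8% lower and 42.7% in either direction. In all 10 the midkine values lay above the control values, as they did for 25.1% of the tested genes; the groups did not overlap, in either direction, for 51.3%. At least 2-fold higher were 7 of them, Cnn1, Tagln, Acta2, Cald1, Myl9, Tpm1 and Tpm2, against 6.22% of the tested genes, while Vcl, Tpm4 and Cnn2 were under 2-fold. The median log2 fold change was 1.59, beside -0.0086 over all tested genes. The comparison was known when the genes were chosen, so nothing is read from these counts. Together the 10 genes held 27328, 32269 and 29631 reads in midkine libraries, at least 0.481% of each, against 9518, 11144 and 9951 reads in control libraries, at most 0.211% of each. When values were scaled to library totals in place of the authors' size factors, the median of all genes moved to -0.27. Cnn2 was then at 0.022 (0.29 relative to all genes) and was no longer called, while Tpm4 (0.22) and Vcl (0.26) were called.

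**Figure D2:**
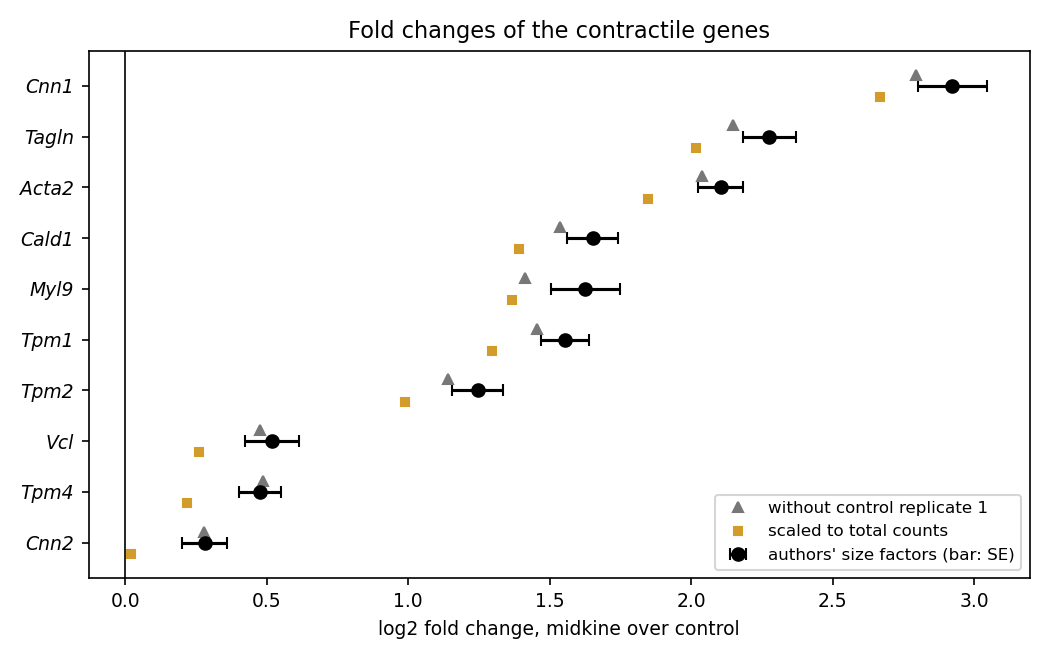
Log2 fold change of each contractile gene, midkine over control (horizontal axis), with its SE, beside the value without control replicate 1 (triangles) and the value scaled to library totals (squares). Cnn1 is at 2.92 and Cnn2 at 0.28 with the authors' size factors, and Cnn2 is at 0.022 when scaled to library totals.

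Relatives of these genes that most cells make were split. Of 10 such genes 5 were higher, 1 lower and 4 not called (median log2 fold change 0.15, beside -0.0086 over all genes). Among all tested genes, 20.9% were called higher, 21.8% lower and 42.7% in either direction. Scaled to library totals, 4 of the 10 relatives were higher and 4 lower, and their median was -0.11 (0.16 relative to all genes). Myh10, a non-muscle myosin heavy chain gene, was at 418 ± 44.1 normalised read counts in midkine and 132 ± 17.3 in control cultures (SD, n = 3 each; log2 fold change 1.66, SE 0.12, limma adjusted p = 1.6e-11). The acidic calponin gene Cnn3 rose (1.19, SE 0.10, limma adjusted p = 2.2e-10), as did Myh9, the main non-muscle myosin of leukocytes (0.50), and Actn4, a non-muscle alpha-actinin (0.52). Tpm3, the remaining tropomyosin gene, fell by 0.29 on the log2 scale (SE 0.07, limma adjusted p = 0.0028), with 2313, 2069 and 2201 in midkine libraries, all below the control values of 2662, 2731 and 2627. The cytoplasmic actin gene Actb was at 74359 ± 4161 in midkine and 83725 ± 8248 in control cultures (-0.17, not called). It was called lower when scaled to library totals (-0.43, or -0.25 without ribosomal RNA rows). Actg1, the other cytoplasmic actin, was called at 0.25 although its groups overlapped. It was at -0.00998 when scaled to library totals and at 0.17, not called, when ribosomal RNA rows were left out of the totals. The call was lost without control replicate 2 (0.17), control replicate 3 (0.22), midkine replicate 1 (0.23) or midkine replicate 3 (0.25). With no filter on low values it was lost too. Tagln2, the transgelin of leukocytes, was at 4574 ± 125 in midkine and 4499 ± 236 in control cultures (0.025, not called), or at -0.23 and called lower when scaled to library totals. Among light chains, Myl12a (0.053, but -0.20 when scaled to library totals) and Myl12b (-0.20) were not called. Myl12b was called lower when scaled to library totals (-0.46, or -0.28 without ribosomal RNA rows) and without midkine replicate 1 (-0.27).

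**Figure D3:**
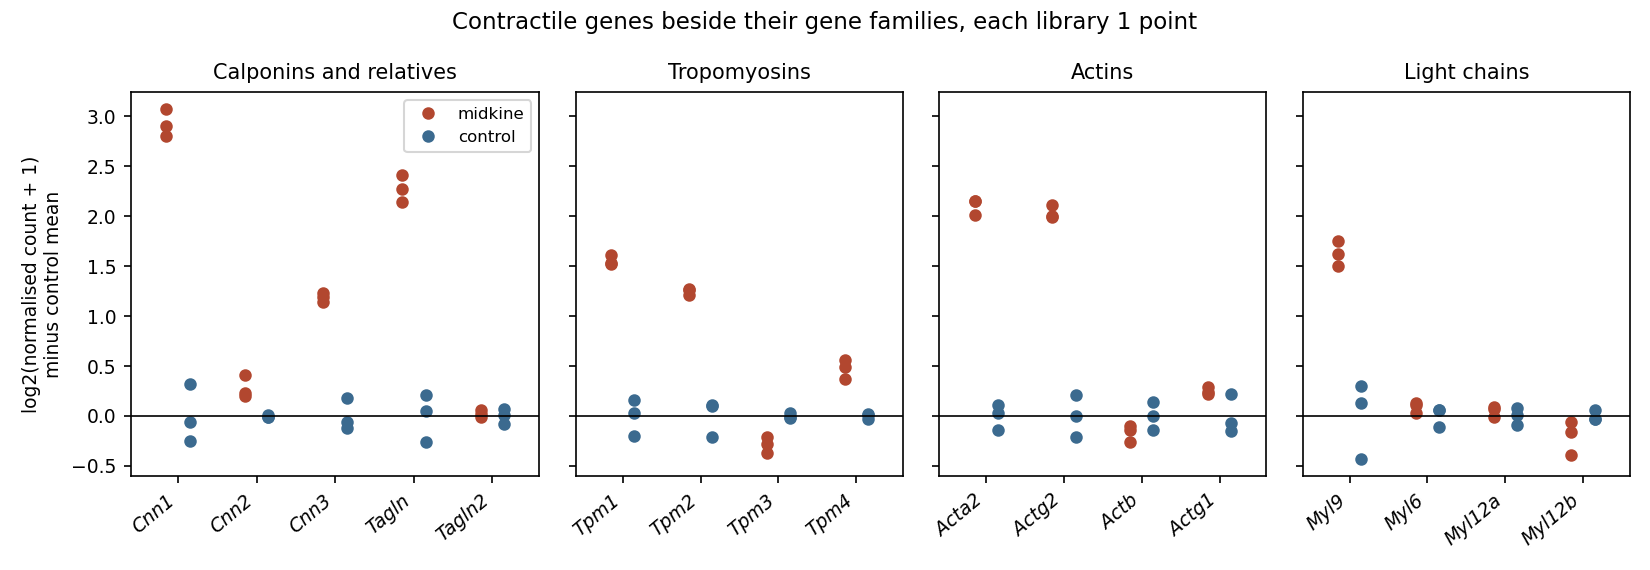
Each library's log2(normalised count + 1) minus the control mean of its gene (vertical axis) for the contractile genes beside other members of their families. Midkine libraries lie high for Cnn1, Tagln, Tpm1, Tpm2, Acta2, Actg2 and Myl9 and near or below the control libraries for Tagln2, Tpm3, Actb, Myl6, Myl12a and Myl12b. They also lie high for Cnn3, a relative that most cells make (mean 1.19), and less so for the contractile genes Tpm4 (0.48) and Cnn2 (0.28). Actg1 averages 0.25 here and -0.00998 when scaled to library totals.

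Other filament genes of smooth muscle were largely higher. From a list of 18, 12 have a row, 11 were tested, and 10 were higher and none lower (median log2 fold change 1.29, beside -0.0086 over all genes). Over all tested genes, 20.9% were called higher and 21.8% lower. Mylk, the kinase that phosphorylates the myosin light chain, was at 2614 ± 86.8 normalised read counts in midkine and 945 ± 137 in control cultures (SD, n = 3 each; 1.48, SE 0.09, limma adjusted p = 8.5e-13). Actg2, the gamma smooth muscle actin, had 277, 279 and 300.6 in midkine libraries, against 59.5, 80.2 and 68.8 in control libraries (2.03, SE 0.13, limma adjusted p = 2.5e-12). Actn1, alpha-actinin of stress fibres, rose by 1.29 (limma adjusted p = 4.1e-13), Synpo2, an actin-bundling protein, by 2.19 (limma adjusted p = 1.9e-09) and Smtn, smoothelin, by 1.37 (limma adjusted p = 2.0e-08). Desmin, Des, the intermediate filament of muscle, was under the minimum mean, with 33 reads in the 3 midkine libraries and 16 in the 3 control libraries. Myl6, the essential light chain of smooth and non-muscle myosin, was at 5709.8 ± 218 in midkine and 5369 ± 349 in control cultures (0.090, not called; -0.17 when scaled to library totals). Flna, the actin crosslinker filamin A, was called at 0.25 (limma adjusted p = 0.033) although its groups overlapped. Its call was lost without control replicate 1 (0.20), control replicate 2 (0.25) or midkine replicate 2 (0.11), and with no filter on low values (0.25). Flna was at -0.010 when scaled to library totals and at 0.17, not called, when ribosomal RNA rows were left out of the totals. The call of Ppp1r14a, an inhibitor of myosin phosphatase (0.56, limma adjusted p = 0.024), was lost without control replicate 3 (0.47), midkine replicate 1 (0.47) or midkine replicate 2 (0.53), in DESeq2 (0.57), and when scaled to library totals (0.30). Scaled to library totals, 8 of the 11 were called higher and none lower.

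Focal adhesion genes, whose products join vinculin where filaments meet the membrane, went both ways. Of 14 tested 8 were higher and 3 lower, where 20.9% of all tested genes were called higher and 21.8% lower. The median log2 fold change was 0.48, beside -0.0086 over all genes. Scaled to library totals 7 were higher and 6 lower, the median being 0.22 (0.49 relative to all genes). Fermt2, kindlin 2, which activates integrins in mesenchymal cells, was at 144 ± 7.45 normalised read counts in midkine and 59.5 ± 2.13 in control cultures (SD, n = 3 each; 1.26, SE 0.14, limma adjusted p = 5.6e-08). Fblim1 (1.33), Pdlim5 (0.70) and the integrin beta 1 gene Itgb1 (0.56) also rose. Zyx, zyxin, fell by 0.43, Pxn, paxillin, by 0.39 and Ptk2, focal adhesion kinase, by 0.56 on the log2 scale. The groups of Ptk2 overlapped. Its call was lost without control replicate 1 (-0.44), control replicate 3 (-0.52), midkine replicate 2 (-0.40) or midkine replicate 3 (-0.53), and in DESeq2 (-0.56). Tln1, the talin that binds vinculin, was at 3363 ± 179 in midkine and 3255 ± 152 in control cultures (0.047, not called), or at -0.21 and called lower when scaled to library totals.

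Srf and its cofactors were not called, whereas 7 of their 8 listed targets outside the filaments were higher. Srf had 23.7, 13.7 and 16.1 normalised read counts in midkine libraries and 18.9, 16.8 and 10.4 in control libraries, and was not called (0.21, SE 0.32; -0.036 when scaled to library totals). At 52 reads in midkine and 48 in control libraries, this depth does not resolve a small difference. Its cofactors Mkl1 (-0.13) and Mkl2 (-0.15) were not called either, but both were called lower when scaled to library totals (-0.39 and -0.41). In a list of 8 targets of SRF and its cofactors, 7 were higher and Filip1l was lower (median 1.10, beside -0.0086 over all genes), and scaled to library totals the counts were 7 and 1. With the authors' size factors, 20.9% of all tested genes were called higher and 21.8% lower. Ctgf, a matricellular growth factor gene, was at 4938 ± 245 in midkine and 750 ± 132 in control cultures (SD, n = 3 each; 2.73, SE 0.09, limma adjusted p = 2.0e-17). Thbs1, thrombospondin 1, rose by 1.96 (limma adjusted p = 3.6e-16), Cyr61, a relative of Ctgf, by 1.68 and Lima1, an actin-bundling gene, by 0.73. Filip1l, at -0.29, was not called without control replicate 1 (-0.22) or without midkine replicate 2 (-0.19). These targets answer to other transcription factors as well.

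**Figure D4:**
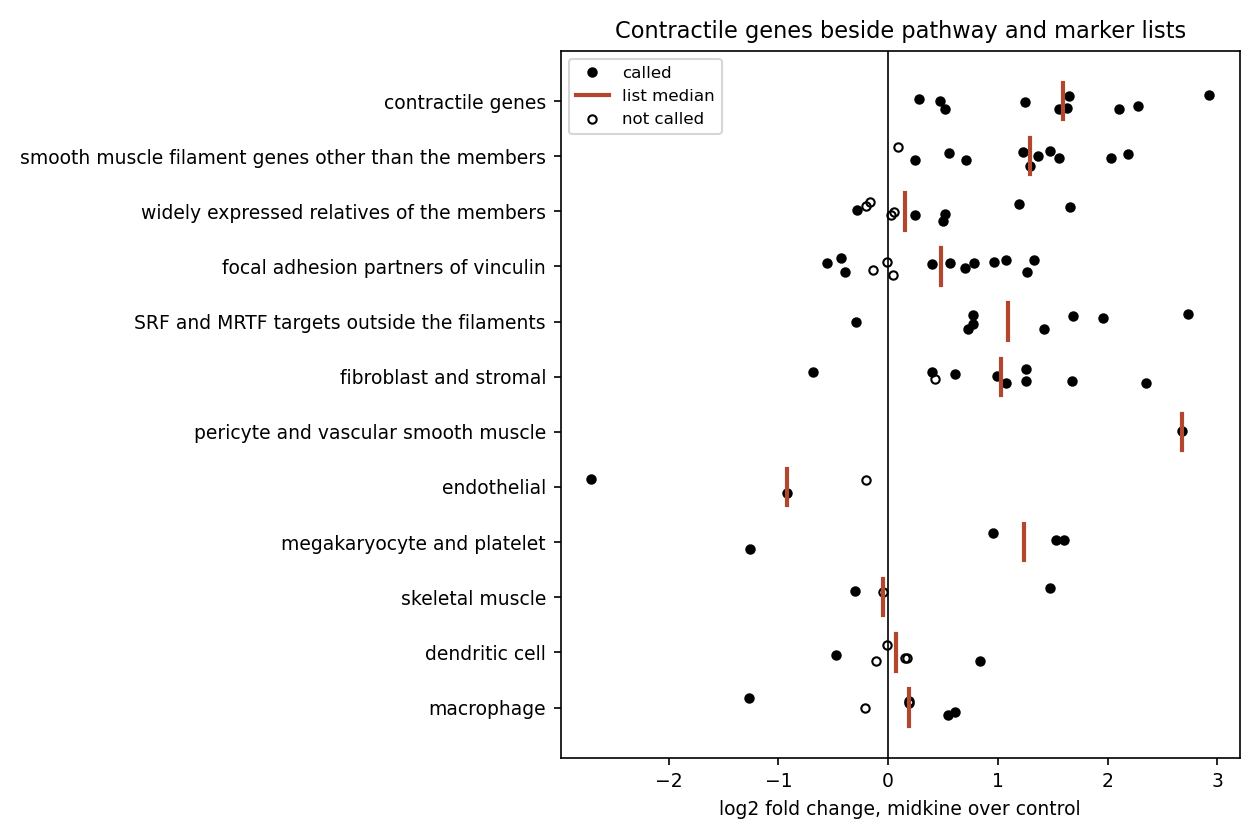
Log2 fold changes, midkine over control (horizontal axis), of the contractile genes and of the tested genes of each pathway and marker list (rows). Filled points were called, open points were not, and the bar is the list median: 1.59 for the contractile genes, 1.29 for other smooth muscle filament genes and 1.03 for stromal markers. Scaled to library totals, the median of the widely expressed relatives is -0.11.

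Markers of other cell types were set beside these genes, where 20.9% of all tested genes were called higher and 21.8% lower. Stromal and fibroblast markers were higher in 8 of 10 tested genes and lower in 1, Cxcl12 (median 1.03; 6 and 1 when scaled to library totals), and their summed level was 36685 to 39672 normalised read counts in midkine libraries and 14194 to 17606 in control libraries. Among them Postn rose by 2.35 (limma adjusted p = 5.9e-17), Col1a1 by 1.68 (limma adjusted p = 3.1e-13), Col1a2 by 1.25 and Col3a1 by 1.25, and the fibroblast receptor gene Pdgfra was at 33.1 ± 6.43 in midkine and 25.5 ± 10.5 in control cultures (SD, n = 3 each; 0.43, not called). Pericyte and vascular smooth muscle markers were represented by a pair of genes, summing to 130.1 to 156 in midkine and 16.1 to 28.1 in control libraries. Of them Mcam, an adhesion molecule of pericytes and endothelium, rose by 2.68 (SE 0.21, limma adjusted p = 1.7e-10) and Cspg4 was below the minimum mean, with 34 reads in midkine and 9 in control libraries. Platelet and megakaryocyte markers, from cells that make Myl9, Tpm4 and Vcl too, summed to 340.0 to 409.6 in midkine and 373 to 537 in control libraries. Gp1bb (1.60), Itga2b (1.53) and Ppbp (0.95) rose and Pf4 fell by 1.25, the median of the tested platelet markers being 1.24. Pf4 was the largest part of each platelet sum (means 167 in midkine and 406 in control cultures). Endothelial markers summed to 48.4 to 55.2 in midkine and 81.2 to 121 in control libraries. Cdh5 (-2.70, on 9 reads in midkine and 77 in control libraries) and Kdr (-0.92) were lower, Kdr losing its call without control replicate 1 (-0.66). Skeletal muscle markers summed to 182 to 206 in midkine and 206 to 238 in control libraries, Acta1 being higher (1.47, on 62 reads in midkine and 22 in control libraries). Tnni2, which made up most of each skeletal muscle sum (means 151 in midkine and 185 in control cultures), was called lower (-0.30, limma adjusted p = 0.048). That call was lost without any 1 control library (-0.32 to -0.29), without midkine replicate 3 (-0.19), with no filter on low values, and in edgeR and DESeq2. Macrophage markers, of cells that make Cnn2 and Vcl, summed to 2347 to 2544 in midkine and 2453 to 3328 in control libraries, with Cd68 (0.61) and Adgre1 (0.54) higher and Mrc1 (-1.27) lower; scaled to library totals, 1 was higher and 2 lower, and Adgre1 was not called (0.29). Dendritic cell markers summed to 36179 to 38029.8 in midkine and 32280.2 to 35182 in control libraries. Most of each sum came from H2-Aa (means 18957 in midkine and 17072 in control cultures) and Cd74 (13259 and 11797). Neither was called with the authors' size factors. Itgax was higher (0.83) and Zbtb46 lower (-0.47), or 1 higher and 3 lower when scaled to library totals. No marker with a row was at 0 in every library of a group. The part of these cell types, and of the mitochondrial ribosomal RNA share, in the levels of the contractile genes was not tested.

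Control replicate 1 stood low in the contractile genes and in the stromal markers. It was the lowest control library for 9 of the 10 contractile genes, all but Tpm4, and for 9 of 10 stromal markers, whereas 36.2% of all tested genes were lowest there. Its mean deviation from the control mean was -0.18 (log2) over the contractile genes and -0.19 over the stromal markers, while the mean over all tested genes was -0.0077. Control replicates 2 and 3 deviated by 0.080 and 0.099 in the contractile genes and by 0.15 and 0.032 in the stromal markers. Midkine libraries deviated by 0.068, -0.022 and -0.046 in the contractile genes and by -0.00028, 0.073 and -0.073 in the stromal markers. Without control replicate 1 the median log2 fold change of the contractile genes was 1.43, and Myl9, the gene it moved most, was at 1.41. The ratio of the summed contractile genes to the summed stromal markers was 745 to 815 per 1000 in midkine libraries and 591 to 633 per 1000 in control libraries. Most of the stromal sum came from Col1a1, Col1a2 and Sparc (means 11177, 11163 and 11682 in midkine and 3485, 4683 and 5590 in control cultures). Leaving out Acta2, the ratio was 537, 466 and 512 in midkine and 473, 446 and 447 in control libraries. The ranges overlapped, only midkine replicate 2 lying below the highest control library. That sum still held Tpm4 (log2 fold change 0.48), Cnn2 (0.28) and Vcl (0.52), the genes that differed least. Whether each of the other contractile genes followed the stromal markers was not tested.

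**Figure D5:**
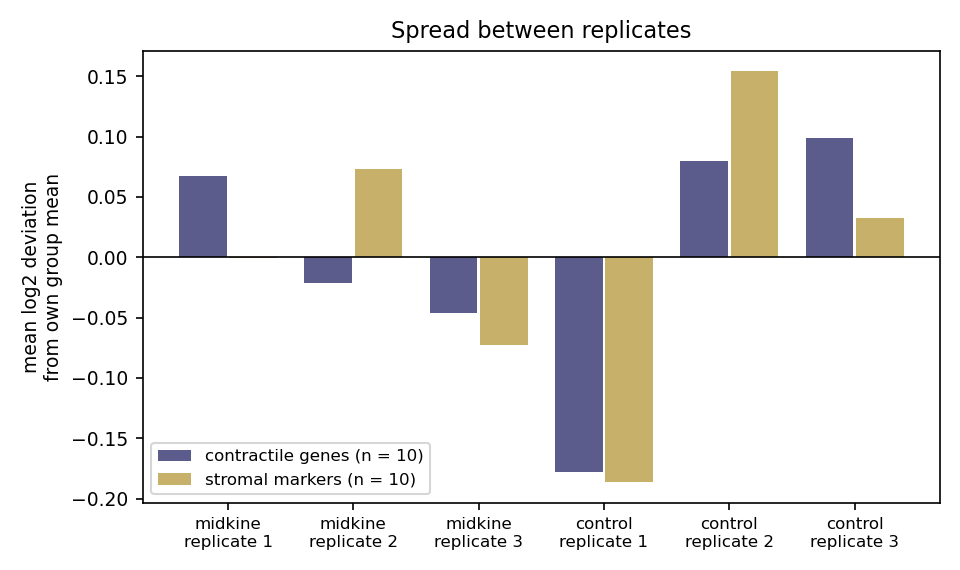
Mean log2 deviation of each library from its own group mean (vertical axis), over the 10 contractile genes and over 10 stromal markers. Control replicate 1 is lowest for both sets, at -0.18 and -0.19.

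Genes with the profile most like that of the contractile genes were ranked by the root mean square distance between centred log2 profiles over the 6 libraries, the yardstick being the mean profile of the 10 genes. Genes whose names are Gm plus digits or end in Rik were passed over. Closest was Mylk, at a distance of 0.041. Then came Lurap1l (0.045), an activator of NF-kB signalling, Col8a1 (0.051), a short-chain collagen gene, Fbxo32 (0.063), a muscle ubiquitin ligase gene, and Epb41l3 (0.067), a membrane skeleton gene. The proteoglycan gene Gpc1 (0.070), the growth factor gene Tgfb2 (0.071) and Enah (0.078), which extends actin filaments, followed. Col8a1 had 2085, 2021 and 2029 normalised read counts in midkine libraries, against 695, 828 and 850.4 in control libraries. Tgfb2 had 628, 659 and 585 in midkine libraries, against 216, 252 and 242 in control libraries. Within the contractile genes the distance ran from 0.062 for Tpm1 to 0.74 for Cnn1, and Cnn2 was at 0.60, since the measure follows the size of the change as well as its order.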

How the data were processed

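Per the labels, 500 ng of total RNA per sample went into forward 3' end libraries (QuantSeq) read on an Illumina HiSeq. Named in the submitters' processing notes are GRCm38 and mm10, DESeq2, HTSeq, TopHat2 2.0.10 and Bowtie 1.0.0, SAMtools 0.1.19 and FastQC 0.11.0. Which annotation and strand setting were used is not given in the sources used here. What the authors deposited is a signal table of 14912 genes, in which, from the values themselves, each library's counts stand divided by 1 factor. Dividing by the value of 1 read (0.916 to 1.13) gave whole reads for 100% of values within 1e-06. No column was left unmapped and no row lacked a gene name. Replicate pairs differed beyond counting noise (chi-square per degree of freedom 2.31 to 10.6), so each library counted once.

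Genes with a mean of at least 10 were tested with limma 3.58.1 (variance trend, R 4.3.3) on log2(value + 1), Benjamini-Hochberg over all genes, threshold 0.05. Log2 fold changes refer to value + 1 and so understate low genes. Members and lists were chosen with earlier results of these data known. Named beside the members were up to 4 called genes per list with the smallest p, 7 set genes and the 8 most similar profiles; some family relatives and exceptions were named after their values were seen. Results of 1 further pathway list are not reported here. Positions are from GENCODE vM21 (GRCm38), which held 99.6% of the symbols. Reads of near-identical copies, such as actins, could be split or lost. Alternatives were other pseudocounts (0.5 and 5), filters and scalings, DESeq2 1.42.0 and the quasi-likelihood test of edgeR 4.0.16 (both on whole reads), a replicate block and leaving out each library. Tables and figures used Python 3.11.15, NumPy 2.4.6, pandas 2.3.3 and matplotlib 3.10.9.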

Additional observations from a re-analysis of the deposited data

How the results depend on the processing

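All 10 contractile genes kept their direction under the 16 alternatives and their calls in 159 of 160 refits, Cnn2 scaled to library totals (0.022) being the exception. The refits reuse the same libraries and the genes were chosen with the comparison known, so nothing is read from this count. Over all genes, values scaled to library totals gave 1277 calls higher and 4823 lower (20.9% higher, against 49.0%), and 2022 and 3180 (38.9%) without ribosomal RNA rows. Scaled to library totals, direction changed for Actg1 (-0.00998), Flna (-0.010), Srf (-0.036), Myl6 (-0.17), Myl12a (-0.20), Tagln2 (-0.23) and Tln1 (-0.21). It also changed without ribosomal RNA rows for Myl12a (-0.025), Tagln2 (-0.053) and Tln1 (-0.031). With 1 library left out, Srf ranged from -0.032 to 0.37 and Tagln2 from -0.016 to 0.060. The cause was not tested. Same-numbered samples did not deviate together (correlations -0.0097, 0.029 and -0.058), so the numbers were not taken as pairs; the replicate block called 5160 genes, against 5059 and all 10 contractile genes. edgeR called 5157 genes and DESeq2 4088. Depth limits Srf, Des, Cspg4 and other genes of few reads per library.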
